A study of Mus musculus with 12 samples.

Results

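The 10 genes described here encode transcription factors of hematopoietic stem cells (HSCs): Tal1, Lmo2, Gata2, Gfi1b, Erg, Fli1, Runx1, Hlf, Mecom and Meis1. They were taken by name, through the Ensembl identifiers of the GENCODE mouse annotation, from 32285 identifiers counted in an HSC sort and 56980 counted in a macrophage sort, and all 10 were present in both tables. RNA came from sorted fetal liver cells of mouse embryos at E14.5 that were homozygous for a floxed allele of Jag1, the gene of the Notch ligand Jagged1. The control embryos carried the same floxed allele without the VavCre transgene (labelled WT in the HSC sort), and the other embryos carried VavCre (labelled Mutant there), whose Vav promoter drives recombination in blood cells and is known to be active in part of the endothelium too. HSCs were sorted as live CD45+ lineage-negative cKit+ Sca1+ CD48- CD150+ cells of C57BL/6 embryos, 2000 cells a library, and macrophages as CD169+ cells, 1000 to 3000 a library. Each of the 4 groups had 3 libraries, and the labels do not say whether these came from separate embryos, so that p-values measure only the spread between these libraries.

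The factors work as a network. Tal1, a basic helix-loop-helix protein, binds DNA beside a GATA factor, and the LIM-only protein Lmo2 joins them and binds Ldb1. With Gata2, Runx1, Lyl1 and the ETS factors Erg and Fli1 they form a set often called the heptad, whose members bind shared enhancers in blood progenitors. Hlf, Mecom and Meis1 are regulators of stem cell self-renewal, and Gfi1b is a zinc finger repressor needed in erythroid and megakaryocytic cells. Several are not restricted to HSCs: Erg, Fli1, Tal1, Lmo2, Gata2 and Mecom are known in endothelium, Runx1 in myeloid cells and Hlf in hepatocytes.

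Counted reads numbered 51982064 to 77463770 in each HSC library. The macrophage libraries held 17230019 to 24658205 reads without Cre and 2602934 to 5366990 with Cre, so that depth differed by genotype in that sort. Levels are given as CPM, read counts scaled to a common library size, with sizes corrected by the trimmed mean of M-values (TMM). A count of 3 corresponded to 0.0385 to 0.0561 CPM in HSC libraries and in macrophages to 0.136 to 0.171 CPM without Cre and 0.513 to 1.06 CPM with Cre. Genes of the HSC gate were present, with Kit at 40.0 to 183 CPM and Ly6a at 127 to 190.0 CPM. Slamf1, which encodes CD150, ran from 8.02 CPM in Cre negative replicate 1 to 74.3 CPM in Cre negative replicate 3. The sinusoidal endothelial gene Stab2 was present too, at 566 to 1567 CPM. In the macrophage libraries Stab2 reached 2413 to 5033 CPM, against 15.9 to 115 CPM of Siglec1, which encodes CD169, and 21.9 to 396 CPM of the macrophage gene Adgre1. Jag1 measured 51.7, 20.7 and 25.9 CPM in Cre negative and 0, 10.4 and 6.67 CPM in Cre positive macrophage libraries. In HSCs it measured 6.52, 6.86 and 1.15 CPM without Cre and 10.5, 0 and 19.4 CPM under the Cre positive label, so that the targeted gene did not separate the HSC groups. A gene-level count includes exons outside the floxed part. In these bulk samples fewer cells of a type and less RNA per cell cannot be told apart.

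The promoters of 8 of the 10 members were listed in RefSeq (GRCm38.p6), with 14 start sites between them; Lmo2 and Fli1 had no entry. The 250 bases before 4 start sites are printed for members that behaved differently across the libraries. Gfi1b had 0 reads in 4 of the 6 macrophage libraries, Erg and Mecom were counted in every library of both sorts, and Runx1 varied most in HSCs. They lie at chr2:28621983-28622232 (Gfi1b), chr16:95459349-95459598 (an inner start of Erg), chr3:30013205-30013454 (an inner start of Mecom) and chr16:92826075-92826324 (the distal start of Runx1), all on the minus strand and written 5′ to 3′. Capitals mark matches on either strand to GATAA (GATA factors), CGGAAG (ETS factors), CAGNTG (E-box, bound by helix-loop-helix factors), TGTGGT (RUNX), TGACAG (MEIS) and TTANGTAA (Hlf).
Gfi1b: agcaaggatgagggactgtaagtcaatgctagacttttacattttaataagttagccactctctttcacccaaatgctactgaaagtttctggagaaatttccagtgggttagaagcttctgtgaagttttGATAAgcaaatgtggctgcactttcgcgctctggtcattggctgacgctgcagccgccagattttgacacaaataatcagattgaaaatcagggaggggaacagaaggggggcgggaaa
Erg: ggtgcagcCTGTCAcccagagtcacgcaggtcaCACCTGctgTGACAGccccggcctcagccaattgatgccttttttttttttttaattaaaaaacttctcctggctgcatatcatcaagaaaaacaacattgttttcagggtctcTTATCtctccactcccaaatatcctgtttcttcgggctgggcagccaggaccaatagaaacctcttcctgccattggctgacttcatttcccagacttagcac
Mecom: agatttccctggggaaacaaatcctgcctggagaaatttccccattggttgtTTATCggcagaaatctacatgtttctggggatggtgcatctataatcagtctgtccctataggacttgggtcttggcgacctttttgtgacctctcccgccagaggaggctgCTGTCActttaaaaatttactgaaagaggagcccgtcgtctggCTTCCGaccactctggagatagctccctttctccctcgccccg
Runx1: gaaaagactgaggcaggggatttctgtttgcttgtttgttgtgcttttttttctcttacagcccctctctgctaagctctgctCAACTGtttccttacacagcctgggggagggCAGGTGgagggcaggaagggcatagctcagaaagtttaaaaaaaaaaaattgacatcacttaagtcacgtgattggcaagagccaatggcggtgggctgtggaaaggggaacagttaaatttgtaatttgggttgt
Gfi1b held a GATAA in this window, the Erg window a GATA match, an E-box and MEIS matches, the Mecom window GATA, ETS and MEIS matches, and the distal Runx1 window E-boxes. Of the windows not printed for these genes, those of Erg and Runx1 held no match to any of these motifs. The other Mecom window held a GATA match and an E-box. Over all 14 member windows, GATAA matched in 5, CGGAAG in 2, CAGNTG in 4, TGTGGT in 1, TGACAG in 2 and TTANGTAA in 0. Among all 32851 promoters of the same length, these matched in 22.6%, 13.6%, 44.8%, 14.0%, 15.9% and 2.06%. A match describes letters and not binding, and gene-level counts do not say which start site was used.

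In the HSC sort all 10 members were counted in every library, and 0 of 10 differed between the genotypes at an edgeR quasi-likelihood p adjusted (Benjamini-Hochberg) over all 13962 genes tested, where 0% of genes passed. The smallest adjusted p among the members was 0.841 (Hlf). At an unadjusted p under 0.05 stood 0 of 10 members, against 6.39% of all genes (2.42% higher and 3.97% lower in the libraries labelled Cre positive), and DESeq2, run on the same genes, called 0 of 10, against 0.924%. The unadjusted count rested on the libraries used: without Cre negative replicate 3 it was 3 (Hlf, Lmo2 and Mecom, edgeR adjusted p = 0.744 each), and with a replicate block it was 1 (Hlf, adjusted p = 0.915). The fitted log2 fold change, Cre positive minus Cre negative, was above 0 in 8 of 10 members, against 49.7% of genes. Its median was 0.46 over the members and -0.00 over all genes. The libraries labelled Cre positive lay above all Cre negative ones without overlap in 2 members, Tal1 and Erg, against 6.37% of genes that separated in this direction, and below them in 0 members, against 9.33%. In either direction 15.7% of genes separated the groups.

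**Figure D1:**
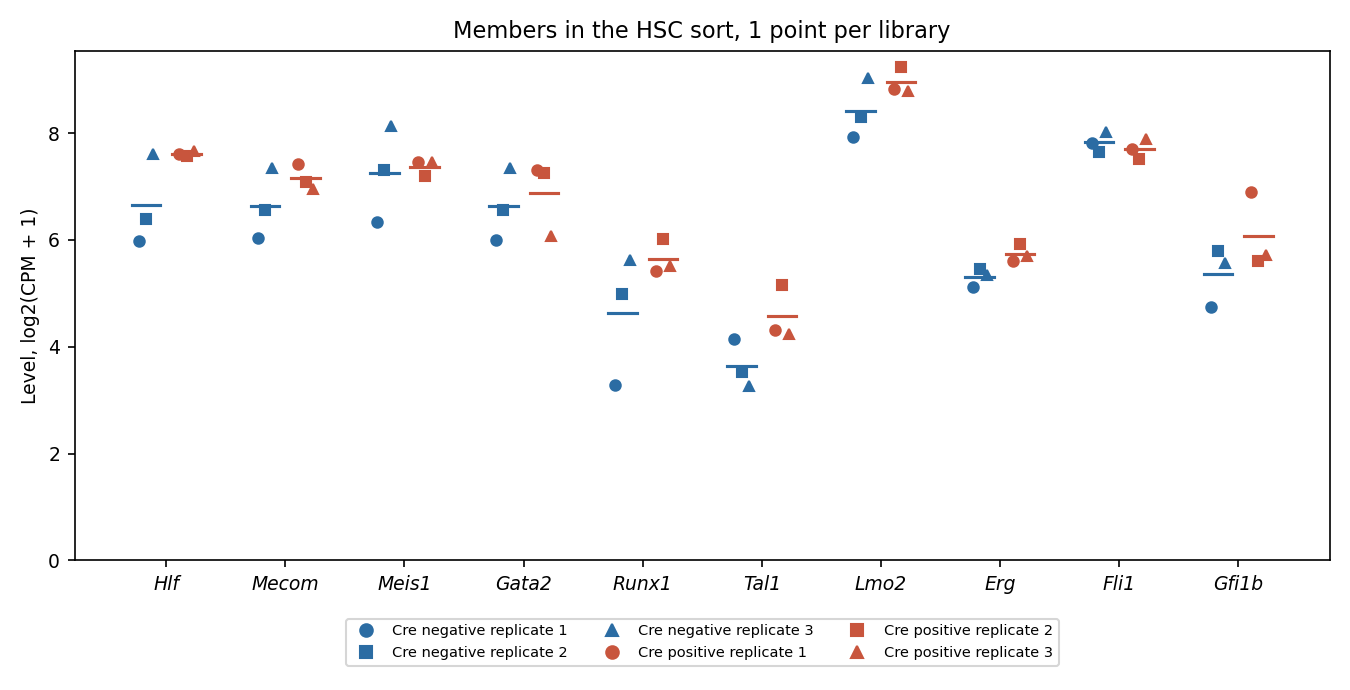
Levels of the 10 members in the HSC sort as log2(CPM + 1), 1 point per library (blue, Cre negative; red, labelled Cre positive; the shape gives the replicate) with a line at each group's mean of 3 libraries. Cre negative replicate 1 (blue circle) is the lowest point in 8 of the 10 genes, and the groups are apart only in Tal1 and Erg.

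Tal1 (ENSMUSG00000028717, chr4:115056426-115071755, plus strand), the helix-loop-helix factor of the complex, measured 16.6, 10.5 and 8.59 CPM in HSCs without Cre and 18.9, 34.8 and 18.0 CPM under the Cre positive label. The groups did not overlap, but the highest Cre negative and the lowest Cre positive library lay close together. The ratio of means was 2.01 and the log2 fold change 1.00 with a standard error (SE) of 0.59 (edgeR adjusted p = 0.874). With 1 library left out, the log2 fold change lay between 0.62 (without Cre positive replicate 2) and 1.32 (without Cre negative replicate 1). The two-sided exact permutation p, on log2(CPM + 1), was 0.1, and groups of 3 cannot give a smaller one.

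Lmo2 (ENSMUSG00000032698, chr2:103957986-103981878, plus strand), the bridging protein, was the most abundant member, at 244, 313 and 521 CPM without Cre and 455, 604 and 438 CPM under the Cre positive label. The groups overlapped, since Cre negative replicate 3 lay above both replicates 1 and 3 of the other group. The log2 fold change was 0.47 (SE 0.30, edgeR adjusted p = 0.877). Leaving out Cre negative replicate 1 gave 0.25 and leaving out replicate 3 of that group 0.84, while leaving out Cre positive replicate 2 gave 0.31.

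Gata2 (ENSMUSG00000015053, chr6:88193891-88207032, plus strand), the GATA factor of stem and progenitor cells, measured 63.0, 93.0 and 161 CPM in libraries without Cre and 157, 152 and 66.0 CPM under the Cre positive label. Each group thus held libraries at either end of the range. The log2 fold change was 0.24 (SE 0.44, edgeR adjusted p = 0.996), and it was -0.03 without Cre negative replicate 1.

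Gfi1b (ENSMUSG00000026815, chr2:28609450-28621982, minus strand), whose promoter with its GATAA is printed above, measured 25.9, 54.0 and 46.2 CPM without Cre and 118, 47.8 and 51.4 CPM under the Cre positive label. A single library, Cre positive replicate 1, stood apart from the other 5. That library also held the highest summed level of 12 megakaryocyte markers (1 of them at 0 in all 6), at 1184 CPM against 645 to 928 CPM in the other 5, with Pf4 at 119.9 CPM and Ppbp at 159 CPM where the others held 18.7 to 55.1 and 0 to 13.3 CPM. The part of these cells in the Gfi1b level was not tested. The log2 fold change was 0.79 (SE 0.47, edgeR adjusted p = 0.875) with this library and 0.24 without it. Leaving out Cre positive replicate 2 instead gave 1.01.

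Erg and Fli1 are closely related ETS factors, and they were the steadiest members in HSCs. Erg (ENSMUSG00000040732, chr16:95359169-95586593, minus strand) measured 33.7, 42.9 and 39.4 CPM without Cre and 47.5, 59.5 and 50.7 CPM under the Cre positive label. The groups did not overlap, with a ratio of means of 1.36 and a log2 fold change of 0.44 (SE 0.31, edgeR adjusted p = 0.910; exact permutation p = 0.1, n = 3 each). Fli1 (ENSMUSG00000016087, chr9:32422204-32542861, minus strand) measured 225, 199 and 257 CPM and 207, 182 and 235 CPM, in the same order of groups. The groups interleaved, and the log2 fold change was -0.13 (95% interval -0.60 to 0.34, adjusted p = 0.996), the narrowest interval among the members. It lay between -0.23 and -0.03 when 1 library was left out. Across the 6 HSC libraries the highest level over the lowest was 1.42 for Fli1 and 1.76 for Erg, against 2.48 to 7.32 for the other members.

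Runx1 (ENSMUSG00000022952, chr16:92601466-92826149, minus strand), the DNA-binding partner of Cbfb and required for blood to emerge from endothelium, varied most. It measured 8.71, 30.8 and 48.4 CPM in libraries without Cre and 41.8, 63.7 and 44.5 CPM under the Cre positive label. Cre negative replicate 1 was far below all other libraries, while replicate 3 lay inside the range of the other group. The log2 fold change was 0.77 (SE 0.60, edgeR adjusted p = 0.926), 0.33 without Cre negative replicate 1 and 1.34 without Cre negative replicate 3.

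The self-renewal regulators showed the same low library. Hlf (ENSMUSG00000003949, chr11:90336536-90390895, minus strand), a PAR bZIP factor, measured 61.8, 82.8 and 195 CPM without Cre and 194, 189 and 203 CPM under the Cre positive label. Those 3 libraries lay within a coefficient of variation of 3.71%, while the Cre negative ones spread over 63.4%, and the highest of them reached the level of the other group. The log2 fold change was 0.79 (SE 0.41, edgeR unadjusted p = 0.0934, adjusted p = 0.841), and it lay between 0.48 and 1.43 when any 1 library was left out. Mecom (ENSMUSG00000027684, chr3:29951296-30548008, minus strand), the locus of Evi1, measured 64.3, 92.8 and 161 CPM and 169.9, 134 and 124 CPM. Cre negative replicate 3 again fell inside the range of the other group, and the log2 fold change was 0.43 (SE 0.35, adjusted p = 0.942). Leaving out Cre negative replicate 1 gave 0.16 and leaving out replicate 3 of that group 0.86, while leaving out Cre positive replicate 1 gave 0.28. Meis1 (ENSMUSG00000020160, chr11:18879817-19018985, minus strand), a homeodomain cofactor of Hox proteins, measured 80.0, 157 and 280.5 CPM and 174, 146 and 175 CPM. The Cre negative libraries here included both the lowest and the highest of the 6, and the log2 fold change was -0.07 (SE 0.41, adjusted p = 0.996).

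Cre negative replicate 1 was the lowest of the 6 HSC libraries in 8 of 10 members, the exceptions being Tal1 and Fli1, whereas it was the lowest in 10.6% of all genes tested. Within the Cre negative group, replicate 1 was lowest and replicate 3 highest in 6 of 10 members (Hlf, Mecom, Meis1, Gata2, Runx1 and Lmo2), against 18.3% of genes. The level in replicate 3 over that in replicate 1 was 5.55 for Runx1, 3.51 for Meis1, 3.16 for Hlf, 2.55 for Gata2, 2.50 for Mecom and 2.14 for Lmo2. It was 0.517 for Tal1, 1.14 for Fli1 and 1.17 for Erg, and its median over genes was 1.00. The summed level of 21 endothelial markers went the other way, at 20252, 13141 and 9703 CPM in Cre negative replicates 1, 2 and 3, with all 21 markers counted in each, and at 10325, 9453 and 13118 CPM under the Cre positive label. The summed level of 15 HSC markers was 1939, 2791 and 4012 CPM without Cre and 3126, 3268 and 2125 CPM under the Cre positive label. The part of the cell mixture in the members' levels was not tested. Without Cre negative replicate 1 the median log2 fold change of the members was 0.29, with 7 of 10 above 0. Without Cre negative replicate 3 it was 0.82, with 9 of 10 above 0.

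**Figure D2:**
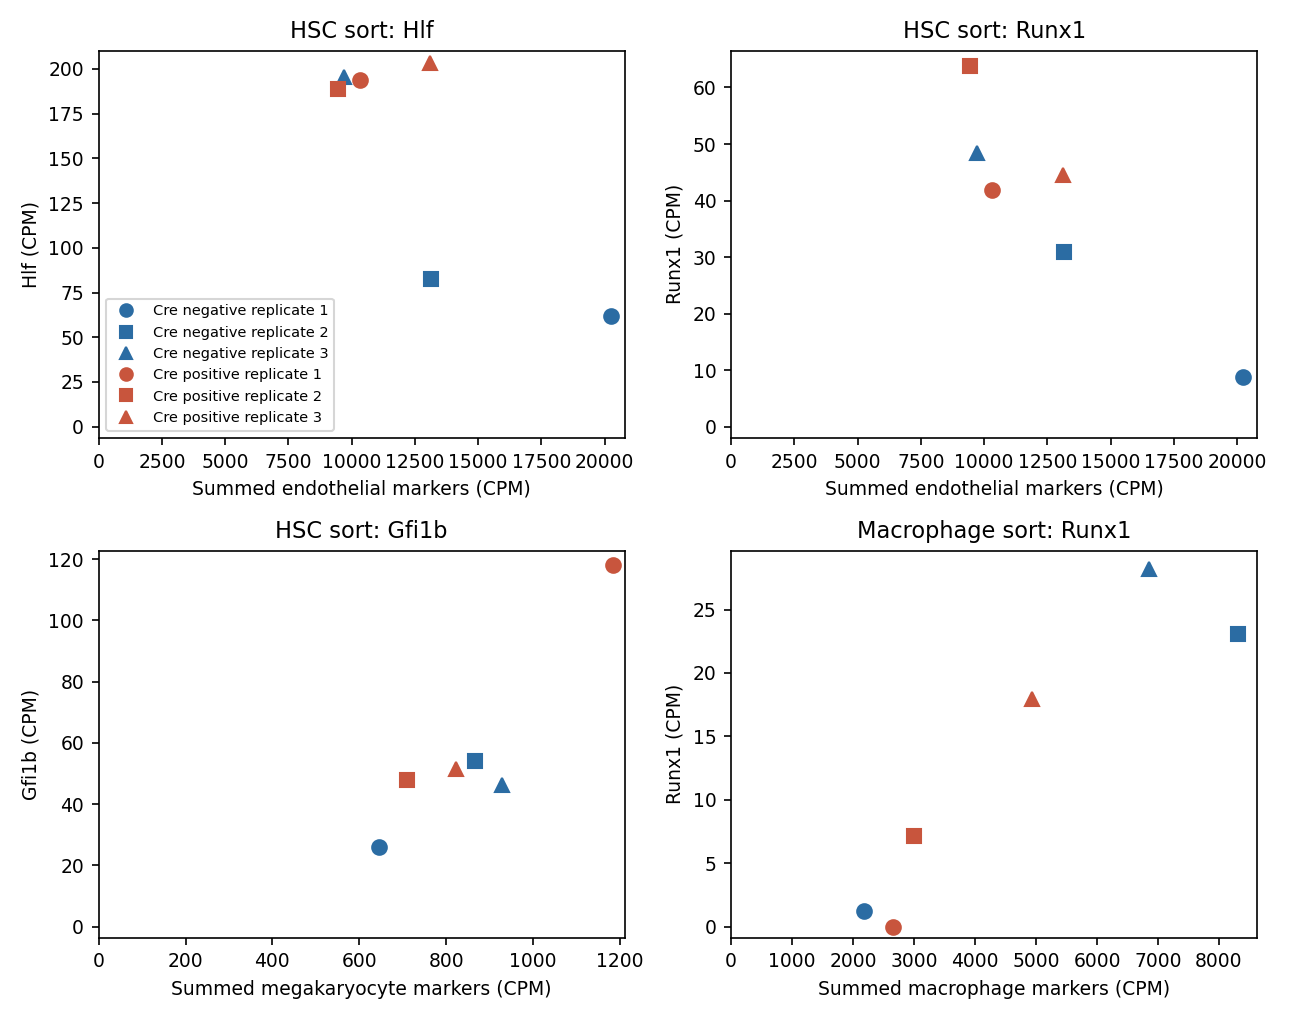
Levels of Hlf, Runx1 and Gfi1b beside the summed level of a marker list, both in CPM, with 1 point per library (colours and shapes as in the plot of HSC levels). Cre negative replicate 1 has the most endothelial signal (20252 CPM) and the least Hlf and Runx1 in HSCs, Gfi1b is highest where megakaryocyte markers are (1184 CPM), and Runx1 in the macrophage sort lies under 10 CPM in the 3 libraries with the fewest macrophage markers (2177 to 3003 CPM).

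Compared per kilobase of merged exon, Lmo2 stood first in all 6 HSC libraries, at 112 to 279 CPM per kb, ahead of Fli1 at 52.1 to 73.8 CPM per kb. Hlf (9.24 to 30.4), Gfi1b (14.1 to 64.6), Gata2 (11.7 to 29.8), Meis1 (7.60 to 26.6), Erg (9.72 to 17.2) and Mecom (5.17 to 13.7 CPM per kb) followed in this order of medians, each overlapping its neighbour. Gfi1b lay above Fli1 in 1 library, Cre positive replicate 1. Tal1, at 1.96 to 7.96 CPM per kb, and Runx1, at 0.725 to 5.30 CPM per kb, took the last places in every HSC library. From Hlf to Mecom, neighbours in the order did not differ beyond their spread over libraries, and neither did Tal1 and Runx1.

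The partners, paralogs and targets of the members showed no single gene past the threshold in HSCs either. Of 20 binding partners and cofactors, 0 passed in either direction, 13 had the higher and 7 the lower fitted level in the libraries labelled Cre positive, and the median log2 fold change was 0.15. The lowest unadjusted p belonged to Cbfa2t3, a corepressor of the Tal1 complex, at 33.3, 48.2 and 69.5 CPM and 64.8, 102 and 257 CPM (edgeR adjusted p = 0.734). Lyl1, the heptad factor closest to Tal1, measured 5.45, 7.92 and 14.9 CPM and 9.98, 23.0 and 48.7 CPM (adjusted p = 0.818). Ldb1, the partner of Lmo2, was even, at 197 to 244 CPM and 187 to 235 CPM.

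Of 24 other HSC and progenitor transcription factors, 19 had the higher fitted level in the libraries labelled Cre positive, 0 passed, and the median was 0.42. The leading ones were the methyltransferase Kmt2a, at 40.7, 56.7 and 55.7 CPM and 60.6, 159.5 and 224 CPM, and the Ikaros family genes Ikzf1, at 6.46, 18.2 and 24.2 CPM and 26.5, 55.4 and 75.8 CPM, and Ikzf2 (edgeR adjusted p = 0.689, 0.736 and 0.781). In this list 4 of 24 genes, these 3 among them, lay higher without overlap, against 6.37% of all genes. Of 15 paralogs of the members that could be tested, 8 lay higher and 7 lower (median 0.00, 0 passed), and Runx2 and Ets1 led after Lyl1, with adjusted p-values of 0.945 and 0.949. Of 20 known target genes, 9 lay higher and 11 lower (median -0.19, 0 passed). The angiopoietin receptor gene Tek, at 380.5, 287 and 272 CPM and 218, 127 and 173 CPM, and the junction gene Esam, both also endothelial, lay lower without overlap (adjusted p = 0.689 each), the only 2 of the 20 to do so, against 9.33% of all genes, while the platelet gene Gp9 lay higher (adjusted p = 0.821).

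**Figure D3:**
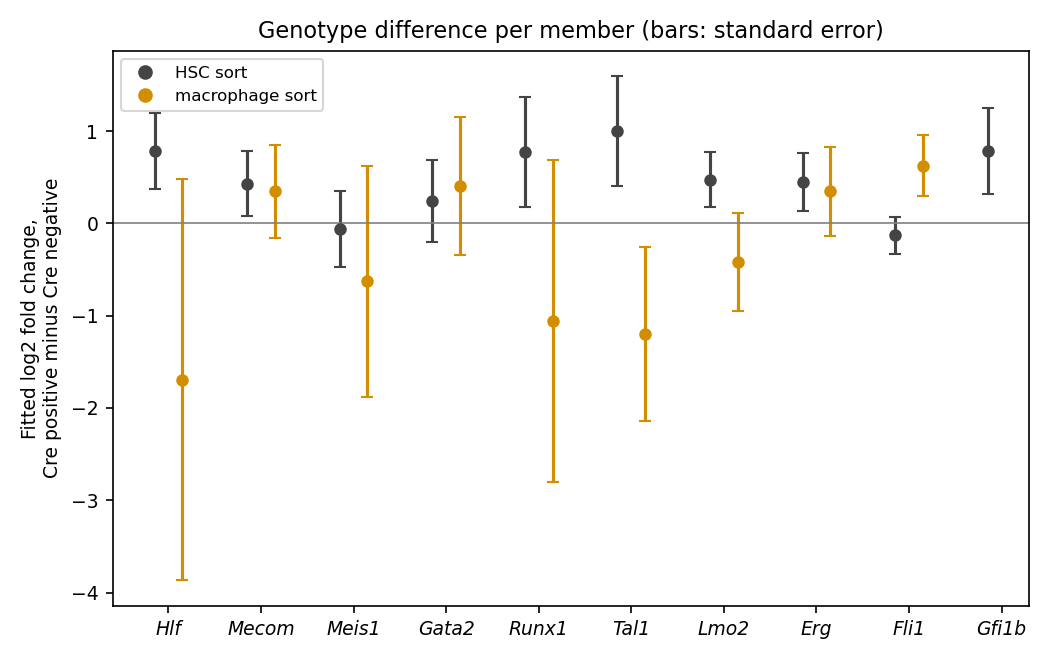
Fitted log2 fold change, Cre positive minus Cre negative, of each member in the HSC sort (grey) and the macrophage sort (yellow), with bars of 1 standard error from the edgeR fit of 3 against 3 libraries. In HSCs the values lie between -0.13 and 1.00, in macrophages between -1.70 and 0.63 with wider bars, and Gfi1b is missing from the macrophage sort because too few reads were left for a test.

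In the macrophage sort the members fell into those counted throughout and those at or near 0 in some libraries. At least 3 reads were present in all 6 libraries for 6 of 10 members: Fli1, Erg, Lmo2, Mecom, Gata2 and Tal1. Fli1 stood first per kilobase in all 6 libraries, at 56.7 to 107 CPM per kb, followed by Lmo2 (15.6 to 40.3) and Erg (14.54 to 29.1 CPM per kb), whose ranges overlapped. Within a library, the level of Lmo2 over that of Fli1 per kilobase was 1.74 to 5.36 in the HSC sort and 0.203 to 0.652 in the macrophage sort. These ratios were not tested, and the tables were counted separately.

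**Figure D4:**
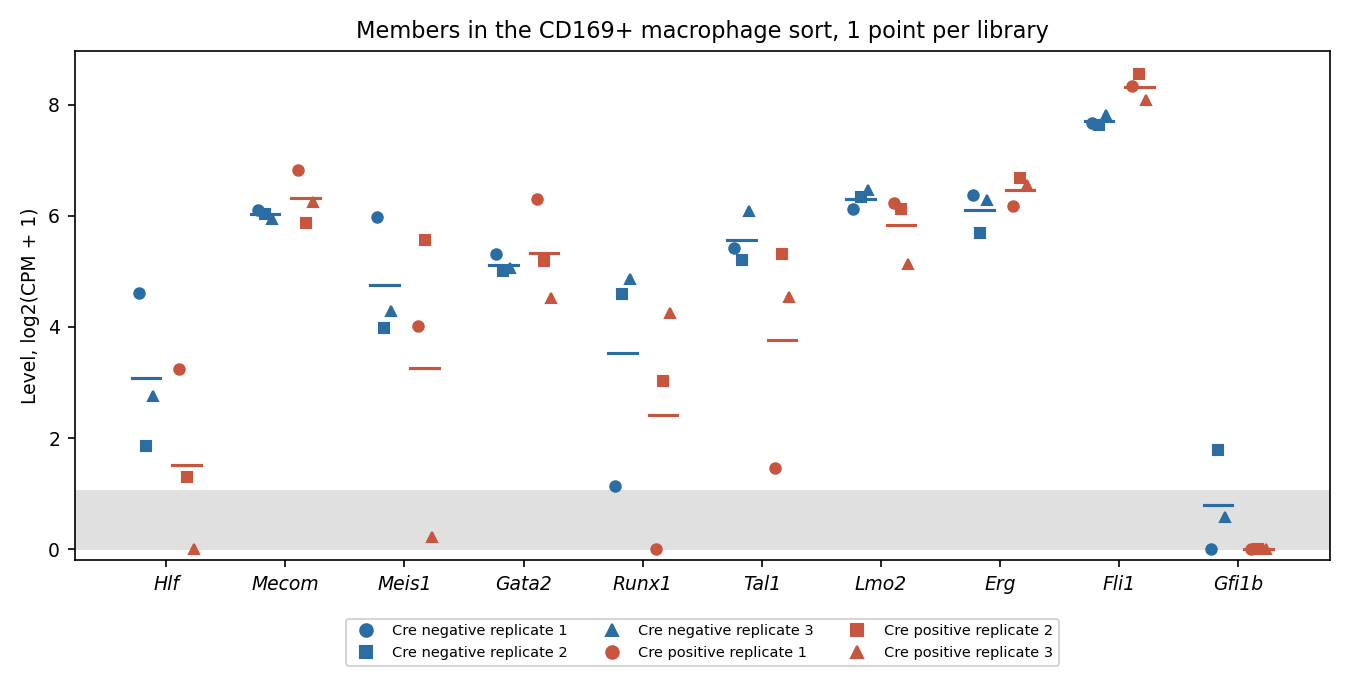
Levels of the 10 members in the CD169+ macrophage sort as log2(CPM + 1), 1 point per library with group means as lines; the grey band reaches up to 1.06 CPM, the level of 3 reads in the shallowest library. Fli1, Erg, Lmo2, Mecom, Gata2 and Tal1 lie above the band in every library, and Gfi1b lies above it only in Cre negative replicate 2.

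Fli1 measured 202, 198 and 224 CPM in Cre negative and 324, 371 and 269 CPM in Cre positive macrophage libraries, without overlap. Its log2 fold change was 0.63 (SE 0.33, edgeR unadjusted p = 0.0725, adjusted p = 1), with an exact permutation p of 0.1 (n = 3 each). Erg measured 81.5, 50.4 and 76.9 CPM and 71.4, 101 and 92.9 CPM, with overlap (log2 fold change 0.35, SE 0.49). Both are endothelial genes as well, and the 21 endothelial markers summed to 20305, 11656 and 11487 CPM in Cre negative and 15707, 20524 and 15328 CPM in Cre positive libraries. Endothelial RNA in the Fli1 difference was not tested.

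Of the others, Mecom (67.7, 64.2 and 60.5 CPM; 112, 57.7 and 74.9 CPM) and Gata2 (38.5, 31.0 and 32.3 CPM; 78.2, 35.3 and 21.9 CPM) were even among Cre negative libraries, and Cre positive replicate 1 lay highest in both. Without that library their log2 fold changes of 0.35 and 0.41 became -0.01 and -0.31. Lmo2 measured 68.8, 80.1 and 87.2 CPM without Cre and 74.3, 68.7 and 33.9 CPM with Cre (log2 fold change -0.42, SE 0.53). Tal1 measured 41.6, 35.8 and 66.8 CPM and 1.77, 38.7 and 22.2 CPM, the lowest value resting on 5 reads (log2 fold change -1.19, SE 0.94, edgeR adjusted p = 1).

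Runx1, Meis1, Hlf and Gfi1b were not counted throughout. Runx1 measured 1.20, 23.1 and 28.2 CPM in Cre negative and 0, 7.13 and 18.0 CPM in Cre positive macrophage libraries. Its lowest levels lay in the libraries with the lowest macrophage marker sums. The 18 macrophage markers summed to 2177, 8317 and 6852 CPM without Cre and 2654, 3003 and 4932 CPM with Cre. Spi1, the master regulator of myeloid cells, measured 6.32, 121 and 102 CPM and 41.4, 17.7 and 53.0 CPM. Among the low libraries Spi1 did not keep the order of Runx1. The 0 of Runx1 in Cre positive replicate 1, the shallowest library, allows up to 1.06 CPM. The fitted log2 fold change of Runx1 was -1.06 (SE 1.75), and the part of macrophage content in its level was not tested. Meis1 measured 62.0, 14.9 and 18.5 CPM and 15.2, 46.2 and 0.171 CPM, the last resting on 1 read, and Hlf 23.6, 2.62 and 5.80 CPM and 8.49, 1.46 and 0 CPM. Both were highest in Cre negative replicate 1, the library with the most hepatoblast markers (4013 CPM against 462 to 729 CPM in the other 5) and the most stellate markers (1646 against 113 to 310.1 CPM). Meis1 was next highest in Cre positive replicate 2, which held the lowest hepatoblast sum (462 CPM) and 146 CPM of stellate markers. The endothelial markers were highest in these same libraries, at 20305 CPM in Cre negative replicate 1 and 20524 CPM in Cre positive replicate 2. The part of any of these cells in the Meis1 and Hlf levels was not tested. The log2 fold change was -0.63 (SE 1.25) for Meis1, turning to 0.33 without Cre negative replicate 1. For Hlf it was -1.70 (SE 2.17), and it was -0.32 without Cre negative replicate 1 and -3.89 without Cre positive replicate 1.

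Gfi1b had 0, 53 and 11 reads in Cre negative and 0 reads in all Cre positive macrophage libraries. The Cre negative levels were 0, 2.43 and 0.498 CPM, and a count of 0 allows up to 1.06, 0.548 and 0.513 CPM in Cre positive replicates 1, 2 and 3, so that a genotype difference was not detectable at this depth. The erythroid factors Gata1 and Klf1, with which Gfi1b is known to act, were also low, at 0 to 3.08 CPM and 0 to 10.1 CPM.

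Between the macrophage groups, 0 of the 9 members tested passed at an edgeR quasi-likelihood p adjusted (Benjamini-Hochberg) over 17806 genes, of which 0% passed. At an unadjusted p under 0.05 stood 0 of 9, against 5.42% of genes (0.511% higher and 4.91% lower with Cre), and DESeq2 called 0 of 9, against 0.303%. Fli1 came under that unadjusted level with DESeq2, upper-quartile scaling and library totals (adjusted p = 0.507, 0.848 and 0.860). The fitted log2 fold change was above 0 in 4 of 9 members, against 43.9% of genes, and 1 of 9 (Fli1) lay higher without overlap, against 2.27%, and 0 of 9 lower, against 11.8% (14.1% in either direction). The members' median was -0.42 and that of all genes -0.16. Scaled by upper quartiles, all genes had a median of -0.00 and the members one of -0.25, and scaled by library totals 0.05 and -0.21. Without Cre negative replicate 1 the members' median turned to 0.33. With 1 library left out, the log2 fold change ranged from -2.34 to -0.55 for Runx1, from -2.01 to -0.72 for Tal1, from -0.68 to -0.19 for Lmo2 and from 0.15 to 0.52 for Erg. Of the partners, paralogs, other factors and targets, 0 passed in either direction. Their medians were -0.01 (20 tested), -0.05 (13), -0.42 (21) and -0.13 (18). Among the partners Pbx2 and Cbfb, the partner subunit of Runx1, were the 2 of 20 that lay lower without overlap, against 11.8% of all genes, at 61.4 to 67.6 against 18.5 to 27.0 CPM and at 93.9 to 139 against 28.6 to 86.1 CPM (edgeR adjusted p = 0.778 and 1). The histone demethylase gene Kdm1a came next, with overlap. Of the paralogs, the genes named were Meis3, Fev and Gfi1 (edgeR adjusted p = 1 for Fev and Gfi1). Meis3 measured 3.93, 9.96 and 5.35 CPM without Cre and 0, 1.46 and 0 CPM with Cre. Fev, an ETS gene, measured 0.0569, 1.06 and 1.90 CPM and 0, 8.95 and 6.16 CPM. Gfi1, the paralog of Gfi1b, measured 0, 1.51 and 3.63 CPM and 1.06, 0 and 26.0 CPM, so that most of its signal lay in 1 library. Of the other factors, Mycn measured 3.07, 6.10 and 8.97 CPM and 0, 0 and 0 CPM and Hoxa9 0, 2.80 and 0.408 CPM and 17.7, 4.02 and 10.4 CPM, followed by Spi1. Among targets, the erythropoietin receptor gene Epor measured 3.19, 6.24 and 13.3 CPM and 0, 0 and 0 CPM, and Tek also stood among the lowest p-values. Mycn and Epor were at 0 reads in all 3 Cre positive libraries, where the floor lies at 0.513 to 1.06 CPM. They entered the test only through their Cre negative reads. Meis3 passed the filter on low counts mainly through its Cre negative reads and Hoxa9 mainly through its Cre positive reads. No p-value is given for any of these genes.

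Whether the genotype difference itself differed between the sorts was tested as an interaction in 1 edgeR fit of all 12 libraries over 20128 genes. Gfi1b entered this fit only through its HSC reads, and no value is given for it. Of the other 9 members 0 passed after Benjamini-Hochberg adjustment, where 0.0696% of genes did, and DESeq2 called 0 of 9, against 3.71%. At an unadjusted p under 0.05 stood 0 of these 9, against 8.62% of genes, but Fli1, Hlf, Meis1, Lmo2 or Tal1 reached that unadjusted level under at least 1 alternative. The smallest unadjusted p-values belonged to Lmo2 (difference -0.90, SE 0.51, edgeR adjusted p = 0.659) and Fli1 (difference 0.74, SE 0.42, adjusted p = 0.666), macrophage effect minus HSC effect on the log2 scale. The intervals of these differences are wide, and the test does not show that the effects were alike.

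**Figure D5:**
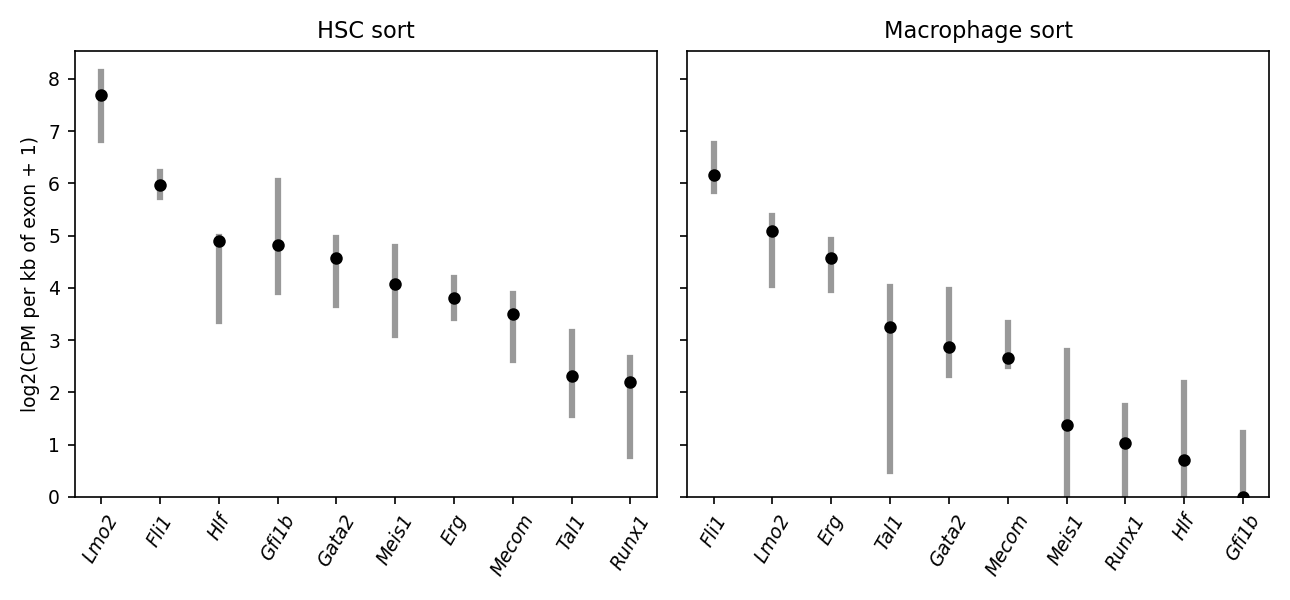
Members ordered by their median level per kilobase of merged exon in each sort, as log2(CPM per kb + 1), with the median over 6 libraries as a point and the range from lowest to highest library as a bar. Lmo2 leads in HSCs and Fli1 in macrophages, and Gfi1b moves from the fourth place in HSCs to the last in macrophages, where its median is 0.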

How the data were processed

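RNA sequencing of 12 libraries was used, 6 of HSCs and 6 of CD169+ macrophages. The authors deposited unnormalized read counts for each gene, with a separate table for each sort. Per the submitters' processing notes, the HSC data went through STAR 2.7.6a for alignment to GRCm38 (mm10) and featureCounts (Subread 2.0.1) for counting. For macrophages the notes name mm10, while aligner and counter were not given in the sources used here. Per the labels' protocols, both sorts were prepared with SMART-Seq v4, a kit without strand marking, so reads of antisense genes cannot be told apart. The labels name no litter or batch for single libraries. Exons of antisense genes overlap 0.652% of exon bases of Mecom, 8.51% of Meis1 and 0.882% of Runx1, and another gene model on its own strand overlaps 9.77% of Meis1. Columns without a sample numbered 0. Replicates differed beyond sampling noise in all groups (chi-square per degree of freedom 51.2 to 831).

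Names, coordinates and merged exon lengths came from GENCODE M21 (GRCm38), and promoters from RefSeq. Each sort was fitted alone in edgeR 4.0.16 (R 4.3.3) with filterByExpr, TMM scaling and robust glmQLFit and glmQLFTest, with a threshold of 0.05 after Benjamini-Hochberg adjustment over all genes tested. SEs were derived from the fold change and its F statistic, and intervals are at 95%. DESeq2 1.42.0, other scalings, no filter, each library left out and a replicate block were alternatives. The fits were tested on simulated data. Floors of 3 counts cover counting error only. The members and lists were chosen with earlier results of these data known. In each list the genes named were those with the smallest p, up to 3, and some of these are not reported here. Jag1 was named as the targeted gene. Kit, Ly6a, Slamf1, Siglec1, Stab2, Adgre1, Ldb1, Pf4, Ppbp, Gata1 and Klf1 are given as levels and were chosen after their values were seen.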

Additional observations from a re-analysis of the deposited data

How the results depend on the processing

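In HSCs the direction of 8 members was the same under all alternatives run (DESeq2, upper-quartile scaling, library totals, no filter on low counts, a replicate block and each library left out). The exceptions were Meis1, at 0.10 with the replicate block and between -0.41 and 0.47 when 1 library was left out, and Gata2, between -0.028 and 0.68. The members' median lay between 0.29 and 0.82 when 1 library was left out. Over all genes DESeq2 called 129 in HSCs, and the other alternatives 0. In macrophages DESeq2 called 54 genes, the fit without a filter 21, the replicate block 13 and fits without 1 library 1 to 34, with 34 without Cre positive replicate 3. Members that turned there when 1 library was left out were Meis1 (-2.10 to 0.33), Mecom (-0.014 to 0.52) and Gata2 (-0.31 to 0.69), and their median lay between -0.56 and 0.33. The interaction called 14 genes, against 747 by DESeq2, 9 with upper-quartile scaling, 96 with the replicate block and 6 to 210 without 1 library (210 without macrophage Cre positive replicate 2). Its sign turned for Mecom (0.036 by DESeq2, 0.10 with upper-quartile scaling, -0.52 to 0.15 without 1 library), Erg (0.049 with upper-quartile scaling, -0.33 to 0.068), Gata2 (-0.074 with the block, -0.51 to 0.48) and Meis1 (-2.10 to 0.41). The cause of these changes was not tested. No member passed the threshold under any of these alternatives. Of the members, 6 had at least 3 reads in every macrophage library, 7 at least 1 read, 5 at least 10 reads and 6 at least 1 CPM. The labels do not say whether same-numbered libraries shared more than a number. The correlations of their deviations were -0.0334 to 0.0116 in HSCs and -0.0160 to 0.0269 in macrophages. Not every library correlated best with its own number. These correlations over all genes do not decide whether a litter or batch was shared. The floor of 3 reads limits low values most in the Cre positive macrophage libraries, at 0.513 to 1.06 CPM.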

Other observations

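The genes whose profile over the 6 HSC libraries was closest to that of a member were looked up as a description, by the root mean square difference of centred log2(CPM + 1) among 10018 genes with a mean of at least 10 CPM. The closest gene was Ypel3 for Lmo2 (difference 0.05), Plekhj1 for Erg (0.04), Arhgef1 for Fli1 (0.04), Mettl7a1 for Meis1 (0.08), Pglyrp1 for Gata2 (0.11), Laptm5, a lysosomal membrane gene of blood cells, for Mecom (0.14), Tmem87b for Tal1 (0.14), Fam234b for Hlf (0.15), Ncoa1 for Runx1 (0.16) and Hspa4l for Gfi1b (0.19). In no case was another member the closest gene. The closest pair of members was Mecom and Lmo2 (0.23), and Mecom was also the member nearest to Hlf (0.30), Meis1 (0.29), Gata2 (0.35) and Gfi1b (0.42).

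In the HSC sort, 10 neutrophil markers summed to 1216, 1461 and 1634 CPM in libraries without Cre and to 2137, 3766 and 875 CPM under the Cre positive label. The mast cell and basophil list, in which Gata2 is known to be active, had 9 of 11 markers at 0 reads in all 6 HSC libraries, and its sum was 0.0681 to 59.0 CPM.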
